A study of Homo sapiens with 31 samples.

Results

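The HOX genes were followed across 8 treatment groups of H460, a long-established line grown from a human non-small cell lung cancer. A row of the expression table counted as a member when its symbol was HOX, a cluster letter from A to D and a number, with no other gene in the row. This gave 32 of 74834 rows, of which 8 lie in the HOXA cluster, 10 in HOXB, 6 in HOXC and 8 in HOXD. The 22 genes whose mean was at least 10 normalized read counts over all 31 libraries were tested, namely 8 of HOXA, 7 of HOXB, 5 of HOXC and 2 of HOXD. The choice used only this mean level and no difference between groups.

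Poly(A) RNA was taken after 6 h with B87 (an inhibitor of mitochondrial complex I) at 1 µM, DMKG (dimethyl α-ketoglutarate, a cell-permeable form of α-ketoglutarate) at 5 mM, or both together. Nutlin-3, which blocks the binding of MDM2 to p53, was given at 30 µM and Rita, a small molecule described as a p53 activator, at 50 µM, each alone or on top of B87 + DMKG. Control cells were untreated, and whether they received a solvent is not given in the sources used here. Each group had 4 libraries, except Nutlin-3 with 3, and each library joined 2 wells of cells from 1 line. Nothing in the labels says that libraries were made in separate experiments. The p-values therefore cover only the spread from library to library, which may be technical.

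HOX genes encode homeodomain transcription factors that stand in 4 clusters, in the same order along the chromosome as the body regions in which they act. The low-numbered (anterior) genes pattern the hindbrain and neck, the middle ones the thorax, and the high-numbered (posterior) ones the lumbar and sacral region, the urogenital tract and the ends of the limbs. Polycomb complexes hold the clusters silent through methylation of lysine 27 of histone H3, trithorax complexes keep them active, and retinoic acid switches on the anterior end. PBX and MEIS proteins bind DNA together with HOX proteins, and cancer cell lines often express parts of several clusters.

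Levels are normalized read counts, that is reads per gene after the authors' scaling of each library. A log2 fold change is the mean of log2(normalized read count + 1) in the treated libraries minus that in the libraries they are set against, given with its standard error (SE). Genes were called higher or lower at a limma adjusted p under 0.05 (Benjamini-Hochberg, over 16259 rows tested), and the share of all rows called is given beside each count. All comparisons against Control share its 4 libraries. Fits without single libraries and with other scalings of the libraries (quantile normalization, or the same total in every library) were run beside it, and the values of genes that lost a call in them are given for many of the genes named. Changes are relative, since no spike-in was used here, and fewer transcripts per cell cannot be told apart from fewer cells that express a gene. Libraries held 33.4 M to 82.5 M reads, with a median of 63.1 M. DMKG libraries 1 and 2 stood apart from 3 and 4, and fits were also run without each pair. Epithelial markers (6 of 6 found) summed to 347571 to 417485 normalized read counts in B87 + DMKG + Nutlin-3, 346191 to 394273 in B87 + DMKG + Rita and 205915 to 314057 in B87 + DMKG, against 246180 to 280522 in Control. Sums of fibroblast markers (5 of 6 found) were 745 to 1391, of leukocyte markers (5 of 6) 58.2 to 278 and of endothelial markers (4 of 4) 0 to 66 over all libraries, with the lowest leukocyte sums (58.2 to 96.9) and the highest endothelial sums (32 to 66) in B87 + DMKG. No marker row found was at 0 in all libraries, and the part of these markers in the results was not tested.

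In untreated cells HOXB7 led the tested members by a wide margin per kilobase of exon. Rows that join several HOX genes have no such value and were not ranked. The row of HOXA9 with HOXA10 held 1209.6 ± 62.2 normalized read counts in Control, against 1430.6 ± 67.2 for HOXB7 (SD, n = 4). Per kilobase of exon, Control cells held 1043 ± 49.0 normalized read counts of HOXB7, a thoracic patterning gene (SD, n = 4). The next 4 genes had 264 ± 10.4 (HOXA5), 260.4 ± 28.8 (HOXA11), 254 ± 46.1 (HOXB9) and 246 ± 21.4 (HOXC13) per kilobase, with spreads that overlap, so their order is not resolved. Exon lengths were taken from GENCODE by gene symbol, not from the positions of the rows. The row of HOXA5 spans 37479 bases and covers that of HOXA4, and HOXA3 has no row of its own. It was divided by the 1.657 kb of HOXA5 exon, so the level per kilobase of HOXA5 is uncertain. Changes given for HOXA5 are those of this whole row and may include other transcripts within it. HOXC9 with 161 ± 27 and HOXB5 with 159.7 ± 19.6 per kilobase likewise could not be separated. At the low end stood HOXA4 with 10.3 ± 2.91, HOXB3 with 5.78 ± 0.685 and HOXC11 with 5.20 ± 3.32 per kilobase, of which the last 2 overlap. Anterior, thoracic and posterior HOX transcripts were thus all present in untreated cells.

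The other 10 genes stayed under the minimum mean. HOXB1, a hindbrain gene, and HOXD3 had 0 reads in all 31 libraries, which allows up to 3 reads in any library (counting error only). HOXC12, HOXD4, HOXD9 and HOXD10 held between 2 and 21 reads over all libraries together, HOXD12 held 59 and HOXD11 143. HOXB2, another hindbrain gene, had 44 reads over the B87 + DMKG + Rita libraries, 33 over B87 + DMKG + Nutlin-3, 18 over B87 + DMKG, 18 over DMKG and 22 over Rita, against 2 over Control. HOXB4, known from blood stem cells, had 84 reads over the B87 + DMKG libraries, 27 over B87 + DMKG + Nutlin-3 and 13 over B87 + DMKG + Rita, against 8 over Control. The row of HOXB4 lies inside that of HOXB3 (chromosome 17, hg19 positions 46652869 to 46655743 within 46626232 to 46667603). Whether counting used the strand is not given in the sources used here, so rows that overlap on the genome are uncertain. Among them are HOXA4 with HOXA5 and HOXC13 with its antisense RNA. The rows of HOXA11 (4067 bases) and HOXA13 (3227 bases) lie wholly within the row that joins HOXA9 and HOXA10, so their values are uncertain as well. HOXA9 and HOXA10 share 1 combined row, as do HOXC4, HOXC5 and HOXC6, and these rows were not members.

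**Figure D1:**
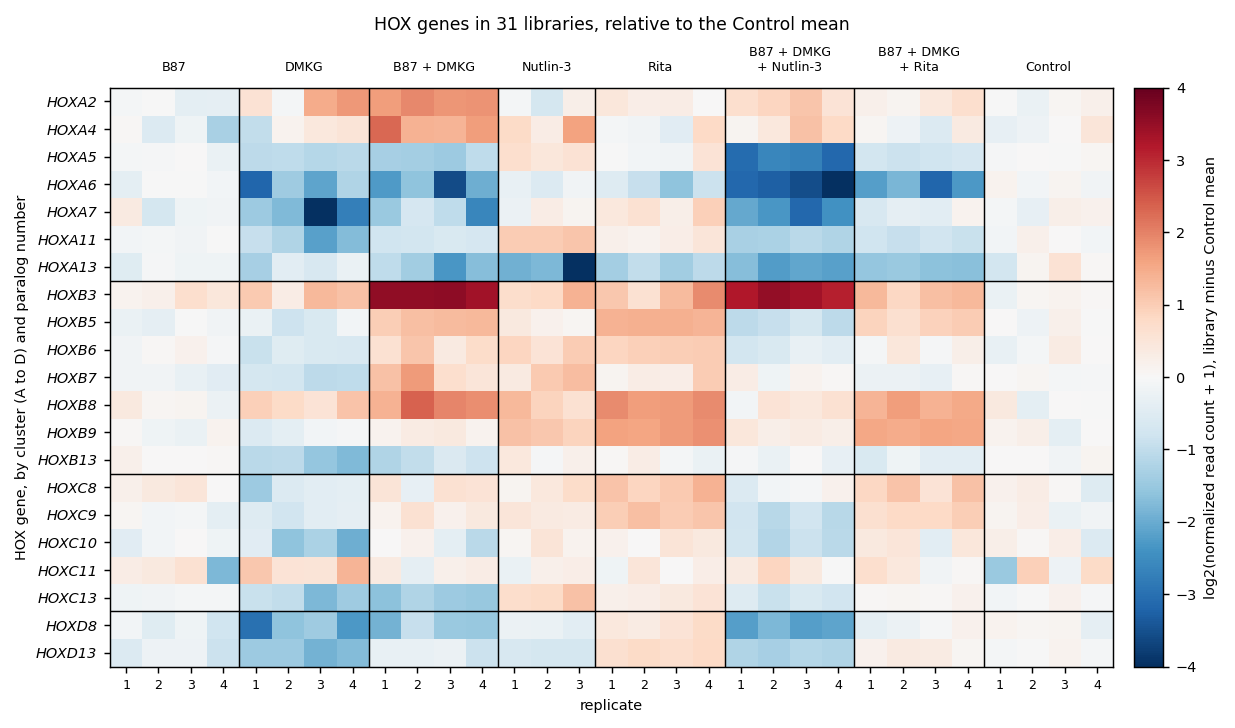
Heat map of 21 tested HOX genes (rows, by cluster and position) in the 31 libraries (columns, by group, with Control at the right), coloured by log2(normalized read count + 1) minus the mean of the Control libraries. HOXB3 and HOXA2 are above Control in all B87 + DMKG libraries, where HOXA6 is at a log2 fold change of -2.36 and HOXA13 at -1.61.

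B87 alone left the HOX genes without a called change. Of the 22 HOX genes tested, 0 were called higher and 0 lower, while 0.0308% of all rows tested were called higher, 0.0123% lower and 0.0431% in either direction. The median log2 fold change was -0.12 over the HOX genes, against 0.00 over all rows. HOXD13, the gene of digit patterning, was the only member with an unadjusted p under 0.05 by limma (adjusted p = 0.50), at 173, 220.2, 222 and 139 normalized read counts with B87, against 244, 254, 282 and 244 in Control. Its log2 fold change was -0.46 ± 0.14. The edgeR and DESeq2 fits on whole reads also called 0 members, with no adjusted p from DESeq2 for 3 of them. Log2 fold changes ran between -0.49 and 0.36, and a call of 0 does not show that the genes were unchanged.

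DMKG alone moved HOX genes mostly downward, with the anterior genes HOXA2 and HOXB3 and the thoracic gene HOXB8 among the exceptions. There were 4 HOX genes called higher and 14 called lower of 22 tested, beside 19.6% of all rows called higher, 21.8% lower and 41.4% either way. Over the HOX genes the median log2 fold change was -0.69, against 0.03 over all rows. By cluster there were 2 higher and 4 lower of 8 in HOXA, 2 higher and 4 lower of 7 in HOXB, 0 higher and 4 lower of 5 in HOXC and 0 higher and 2 lower of 2 in HOXD. HOXA6 had 9.74, 35.1, 21.6 and 41 normalized read counts with DMKG, against 107, 89.5, 104 and 86.4 in Control (log2 fold change -1.98 ± 0.38, adjusted p = 0.00011), and the groups did not overlap. Its neighbour HOXA7 had 26.4, 20.8, 1.14 and 10.1 with DMKG, against 69.4, 58.6, 85.9 and 83.1 in Control (log2 fold change -2.77 ± 0.48, adjusted p = 2.5e-05). HOXD8 had 12.5, 33.8, 38.7 and 20.9 with DMKG, against 117, 113, 115 and 83.1 in Control (log2 fold change -2.08 ± 0.25, adjusted p = 6.0e-08), again without overlap. All 3 of these genes lie in the middle of their clusters and are known from the patterning of the trunk.

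HOXD13 and HOXA11, both posterior, fell with DMKG, while the posterior genes HOXA13 and HOXC11 were not called (log2 fold change -0.67, adjusted p = 0.15, and 0.88, adjusted p = 0.12). HOXD13 had 91.9, 93.6, 68.2 and 75.6 normalized read counts with DMKG, against 244, 254, 282 and 244 in Control (log2 fold change -1.63 ± 0.14, adjusted p = 1.4e-10). HOXA11, needed for the forearm and the uterus, had 316, 259, 132 and 179 with DMKG, against 548, 689, 602 and 551 in Control (log2 fold change -1.50 ± 0.15, adjusted p = 3.0e-09). Neither overlapped between the groups. Among the genes that rose, HOXB3 reached 75.2, 44.2, 89.8 and 82.8 with DMKG, against 29.9, 38.4, 39.4 and 37.2 in Control (log2 fold change 0.95 ± 0.22, adjusted p = 0.00080). HOXA2, the selector gene of the second pharyngeal arch, had 134, 85.8, 252 and 299 with DMKG, against 89.7, 74.6, 94.3 and 103 in Control (log2 fold change 0.93 ± 0.25, adjusted p = 0.0034). The HOXB3 groups did not overlap and the HOXA2 groups did. HOXB8 rose by a log2 fold change of 0.86 (adjusted p = 0.0017). The rise of HOXA2 was largest in DMKG libraries 3 and 4, while library 1 was also above every Control library. Without libraries 3 and 4 the log2 fold change of HOXA2 was 0.25, adjusted p = 0.42, and without libraries 1 and 2 it was 1.6. Without libraries 3 and 4, HOXB3 was at 0.66, adjusted p = 0.050, and HOXA7 at -1.61, adjusted p = 0.0017. The call of HOXC8 ended without DMKG libraries 1 and 2 (-0.41, adjusted p = 0.22), without DMKG library 1 alone (-0.46, adjusted p = 0.11) and without Control library 2 (-0.61, adjusted p = 0.060).

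B87 + DMKG together split the HOXA cluster and raised most of HOXB. Calls numbered 9 higher and 9 lower among 22 HOX genes, and 30.2% higher, 30.8% lower and 61% in either direction among all rows. HOX genes had a median log2 fold change of 0.18, against 0.00 over all rows. Split by cluster, these were 3 higher and 5 lower of 8 in HOXA, 5 higher and 1 lower of 7 in HOXB, 1 higher and 1 lower of 5 in HOXC and 0 higher and 2 lower of 2 in HOXD. Within HOXA, HOXA2 and HOXA4 were called higher, and HOXA5, HOXA6, HOXA7, HOXA11 and HOXA13 lower. Within HOXB, HOXB3, HOXB5, HOXB6, HOXB7 and HOXB8 were higher, HOXB13 was lower and HOXB9 was not called (log2 fold change 0.24, adjusted p = 0.076), though it was called higher under quantile normalization (0.36, adjusted p = 0.0081).

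Among the anterior genes, HOXA2 had 285, 345, 307 and 312 normalized read counts with B87 + DMKG, against 74.6 to 103 in Control (log2 fold change 1.79 ± 0.25, adjusted p = 4.0e-07). HOXA4 had 90.6, 48, 46.3 and 57.5 with B87 + DMKG, against 13.9, 14.9, 17.9 and 25.2 in Control (log2 fold change 1.68 ± 0.37, adjusted p = 0.00026). For both, every B87 + DMKG library was above every Control library, and under quantile normalization HOXA4 stood at 1.10. HOXB3 had 429.6, 435, 445 and 379.6 with B87 + DMKG, against 29.9 to 39.4 in Control (log2 fold change 3.51 ± 0.22, adjusted p = 3.9e-14), the largest change of any member in this comparison. HOXB8 had 82.8, 163, 121 and 115 with B87 + DMKG, against 40.6, 23.4, 31 and 30.6 in Control (log2 fold change 1.89 ± 0.21, adjusted p = 8.4e-09). HOXB7, the most abundant member per kilobase in Control, was also higher (log2 fold change 1.02, adjusted p = 5.7e-05).

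On the falling side, HOXA6 had 19, 30.7, 7.13 and 24.2 normalized read counts with B87 + DMKG, against 86.4 to 107 in Control (log2 fold change -2.36 ± 0.38, adjusted p = 4.6e-06). HOXA13, a gene of the distal limb and the urogenital tract, had 28, 21.3, 10.7 and 17.2 with B87 + DMKG, against 34.2, 62.9, 87.1 and 59.1 in Control (log2 fold change -1.61 ± 0.37, adjusted p = 0.00039). HOXC13, which acts in hair and nail, had 191, 256, 217 and 206 with B87 + DMKG, against 549, 584, 669.6 and 579.6 in Control (log2 fold change -1.45 ± 0.14, adjusted p = 3.8e-10). None of these 3 overlapped with Control. HOXA7 was at -1.45 (adjusted p = 0.010), and its call ended without B87 + DMKG library 4 (-1.06, adjusted p = 0.062). HOXD8 was at -1.45 (adjusted p = 9.7e-06). The call of HOXD13 ended without B87 + DMKG library 4 (-0.27, adjusted p = 0.094), and that of HOXC9 without any of 4 single libraries, B87 + DMKG 2 or 4 or Control 3 or 4 (log2 fold change 0.33 with all libraries), or under quantile normalization (0.31, adjusted p = 0.054).

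The promoters of 4 HOXA neighbours that changed in opposite directions with B87 + DMKG are shown from RefSeq on GRCh38.p14, each 300 bases long from 250 before to 50 after the gene's start on the minus strand. HOXA2 (chr7:27102634-27102933) and HOXA4 (chr7:27130708-27131007) belong to genes called higher, and HOXA6 (chr7:27147725-27148024) and HOXA7 (chr7:27156626-27156925) to genes called lower. The RefSeq table held a promoter for 8 of the 22 tested genes, and the positions of the expression table are on another build, hg19. Capitals mark matches on either strand to the HOX-PBX site TGATNNAT, the GC box GGGCGG and the core ACGTG of the hypoxia response element.
HOXA2: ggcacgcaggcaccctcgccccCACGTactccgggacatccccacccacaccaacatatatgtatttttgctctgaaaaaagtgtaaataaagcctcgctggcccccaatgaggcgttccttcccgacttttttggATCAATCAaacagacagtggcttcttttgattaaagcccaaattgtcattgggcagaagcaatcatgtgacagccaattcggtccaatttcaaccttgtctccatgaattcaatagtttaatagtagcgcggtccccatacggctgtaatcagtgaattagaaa
HOXA4: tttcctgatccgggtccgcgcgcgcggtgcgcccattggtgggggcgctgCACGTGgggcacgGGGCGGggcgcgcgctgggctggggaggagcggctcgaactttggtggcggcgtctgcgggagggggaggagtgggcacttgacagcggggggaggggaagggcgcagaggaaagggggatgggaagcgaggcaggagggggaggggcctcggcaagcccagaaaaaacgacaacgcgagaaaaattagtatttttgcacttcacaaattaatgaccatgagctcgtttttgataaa
HOXA6: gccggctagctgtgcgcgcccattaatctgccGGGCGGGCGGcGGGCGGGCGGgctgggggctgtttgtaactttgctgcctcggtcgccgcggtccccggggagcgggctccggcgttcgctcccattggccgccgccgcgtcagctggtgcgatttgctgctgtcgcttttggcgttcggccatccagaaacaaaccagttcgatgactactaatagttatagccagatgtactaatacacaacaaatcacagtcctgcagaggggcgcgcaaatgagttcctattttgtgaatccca
HOXA7: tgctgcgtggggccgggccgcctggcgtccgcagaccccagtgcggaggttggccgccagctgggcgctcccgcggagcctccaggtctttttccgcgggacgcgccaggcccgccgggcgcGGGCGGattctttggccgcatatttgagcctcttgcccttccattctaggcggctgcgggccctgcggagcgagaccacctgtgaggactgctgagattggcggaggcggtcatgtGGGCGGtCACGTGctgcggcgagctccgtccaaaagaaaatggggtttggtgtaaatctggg
HOXA2 held 1 HOX-PBX match, 0 GC boxes and 1 ACGTG. HOXA4 held 0, 1 and 2, the 2 ACGTG being the strands of 1 palindrome. HOXA6 held 0, 4 and 0, with overlapping GC boxes. HOXA7 held 0, 2 and 2, the 2 ACGTG again from 1 palindrome. Of 35116 promoters of the same length, 7.4% held the HOX-PBX site, 45% the GC box and 21.4% the ACGTG core. The promoter of HOXA2 had 46.3% G and C with 11 CG pairs, that of HOXA4 63.3% with 27, that of HOXA6 60.3% with 29 and that of HOXA7 68% with 31, against medians of 58.7% and 14 over all promoters. A match is a stretch of letters and does not show binding.

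Set against DMKG alone, B87 + DMKG had higher levels of all 7 tested HOXB genes. Of the 22 HOX genes tested, 16 were called higher and 1 lower, while 30.8% of all rows tested were called higher, 29.3% lower and 60.1% in either direction. The median log2 fold change was 0.85 over the HOX genes, against 0.02 over all rows. The clusters gave 4 higher and 1 lower of 8 in HOXA, 7 higher and 0 lower of 7 in HOXB, 3 higher and 0 lower of 5 in HOXC and 2 higher and 0 lower of 2 in HOXD. Quantile normalization gave 12 higher and 4 lower, and a fit of only the 2 groups compared gave 11 higher and 0 lower. HOXB3 had 429.6, 435, 445 and 379.6 normalized read counts with B87 + DMKG, against 75.2, 44.2, 89.8 and 82.8 with DMKG (log2 fold change 2.56 ± 0.22, adjusted p = 3.1e-11). HOXB7 had 3249.9, 4674, 2279 and 2020.2 with B87 + DMKG, against 881, 858, 687 and 705 with DMKG (log2 fold change 1.89 ± 0.20, adjusted p = 1.8e-09). HOXB5, a thoracic and lung-bud gene, had 638, 743, 773 and 799.6 with B87 + DMKG, against 267, 183, 211 and 298 with DMKG (log2 fold change 1.64 ± 0.13, adjusted p = 5.3e-12). The groups did not overlap in any of these 3. In HOXA, HOXA4 had 90.6, 48, 46.3 and 57.5 with B87 + DMKG, against 8.35, 19.5, 23.9 and 25.2 with DMKG (log2 fold change 1.66 ± 0.37, adjusted p = 0.00031), also without overlap. HOXB6 was higher by 1.36 (adjusted p = 5.3e-09).

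The only member called lower against DMKG was HOXA13 (log2 fold change -0.94 ± 0.37, adjusted p = 0.029), and it lost its call without any of DMKG libraries 2, 3 or 4 or B87 + DMKG libraries 3 or 4, at -0.70 without B87 + DMKG library 3 at the weakest. Without DMKG libraries 3 and 4 together it was at -0.73, adjusted p = 0.18, and under quantile normalization at -1.44, adjusted p = 0.00070. HOXA2, HOXA7, HOXA11, HOXB13, HOXC10 and HOXD8 depended on which DMKG libraries were used. Without DMKG libraries 1 and 2, HOXA2 was at 0.18, adjusted p = 0.49, HOXD8 at 0.41, adjusted p = 0.18 and HOXA11 at 1.25. Without DMKG libraries 3 and 4, HOXA7 was at 0.15, adjusted p = 0.75, HOXC10 at 0.71, adjusted p = 0.058, HOXB13 at 0.17, adjusted p = 0.39 and HOXA11 at 0.36. HOXA7 also lost its call without DMKG library 3 (0.54, adjusted p = 0.20) or B87 + DMKG library 2 or 3. HOXD8 lost its call without DMKG library 1 (0.33, adjusted p = 0.22) or 4 or B87 + DMKG library 2. HOXB13 lost its call without DMKG library 4 (0.33, adjusted p = 0.066) or B87 + DMKG library 3. Without DMKG library 2, HOXA2 was at 0.53, adjusted p = 0.043, and without libraries 3 and 4 at 1.53. Without DMKG libraries 1 and 2, HOXA7 was at 2.48, HOXB13 at 0.76 and HOXB9 at 0.32 (log2 fold change 0.52 with all libraries). Quantile normalization ended the calls of HOXA7 (0.84, adjusted p = 0.14), HOXB13 (0.27, adjusted p = 0.17), HOXC10 (0.50, adjusted p = 0.14) and HOXD8 (0.10, adjusted p = 0.74). HOXB8 and HOXC8 kept theirs under it, at 0.66 and 0.64, against 1.03 and 1.05 with the authors' scaling.

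The effect of B87 on top of DMKG was set against its effect on its own, and the difference between the 2 effects was tested. Of 22 HOX genes, 13 had a difference called higher and 0 lower, with 24.6% and 24.1% of all rows called higher and lower. By cluster there were 3 higher and 0 lower of 8 in HOXA, 6 higher and 0 lower of 7 in HOXB, 2 higher and 0 lower of 5 in HOXC and 2 higher and 0 lower of 2 in HOXD. For HOXB3 the log2 fold change with B87 was 2.56 ± 0.22 on top of DMKG, against 0.36 ± 0.22 on its own (difference 2.20, adjusted p = 9.5e-07). For HOXA4 it was 1.66 ± 0.37 on top of DMKG, against -0.49 ± 0.37 on its own (difference 2.15, adjusted p = 0.0012). For HOXB7 it was 1.89 ± 0.20 on top of DMKG, against -0.26 ± 0.20 on its own (difference 2.15, adjusted p = 2.6e-07). HOXB5 and HOXD13 followed with differences of 1.84 and 1.68. In HOXD13 the effect of B87 was 1.22 ± 0.14 on top of DMKG, against -0.46 ± 0.14 on its own. HOXA11 had a difference of 1.34 without DMKG libraries 1 and 2 and of 0.44 without 3 and 4. HOXD8 lost its call without DMKG library 1 (0.72, adjusted p = 0.056), and HOXA2 and HOXB9 without DMKG libraries 1 and 2 (0.39, adjusted p = 0.26 and 0.39, adjusted p = 0.062). Without DMKG libraries 3 and 4, HOXC10 lost its call (0.89, adjusted p = 0.076) and HOXA2 was at 1.74. Quantile normalization gave 10 called higher and 1 lower and ended the calls of HOXB8 (0.55, adjusted p = 0.14), HOXC10 (0.64, adjusted p = 0.20) and HOXD8 (0.43, adjusted p = 0.32).

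**Figure D2:**
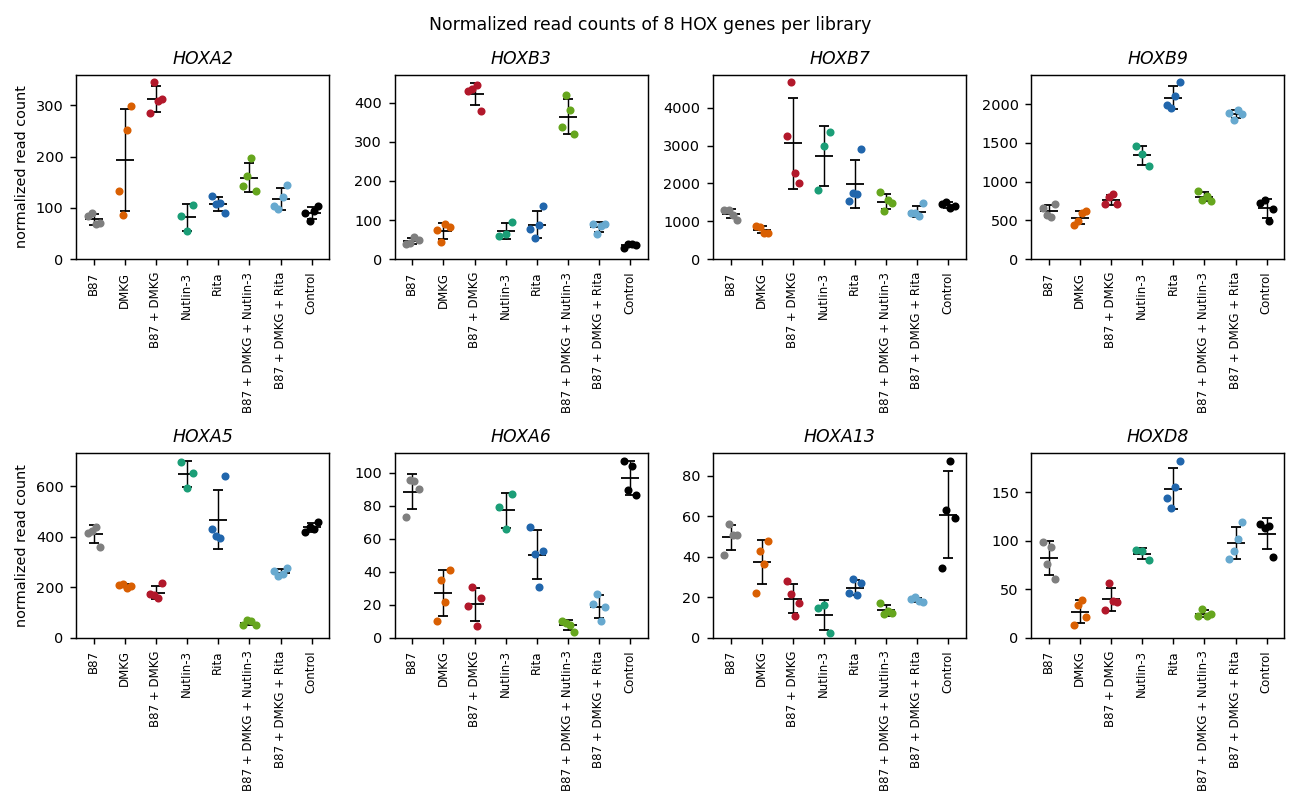
Normalized read counts (vertical axis) of HOXA2, HOXB3, HOXB7, HOXB9, HOXA5, HOXA6, HOXA13 and HOXD8 in each group (horizontal axis, Control at the right), with 1 point per library and the mean ± SD. HOXB3 is high in the B87 + DMKG and B87 + DMKG + Nutlin-3 libraries, and HOXA6 is lower in every group with DMKG than in Control.

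Nutlin-3 alone raised 5 of 7 HOXB genes and lowered HOXA13. There were 9 HOX genes called higher and 2 called lower of 22 tested, beside 18.5% of all rows called higher, 20.7% lower and 39.1% either way. Over the HOX genes the median log2 fold change was 0.32, against -0.01 over all rows. Split by cluster, these were 2 higher and 1 lower of 8 in HOXA, 5 higher and 0 lower of 7 in HOXB, 2 higher and 0 lower of 5 in HOXC and 0 higher and 1 lower of 2 in HOXD. HOXB9 had 1455, 1359.8 and 1208 normalized read counts in the 3 Nutlin-3 libraries, against 719.9, 761, 491 and 649 in Control (log2 fold change 1.05 ± 0.13, adjusted p = 1.1e-07). HOXA11 had 1193, 1195 and 1298 with Nutlin-3, against 548 to 689 in Control (log2 fold change 1.04 ± 0.17, adjusted p = 8.8e-06). HOXB8 had 78.1, 58.5 and 47.1 with Nutlin-3, against 23.4 to 40.6 in Control (log2 fold change 0.94 ± 0.23, adjusted p = 0.0017). In none of the 3 did the groups overlap. HOXB3 and HOXB7 were higher by 0.96 and 0.88 (adjusted p = 0.0017 and 0.0014). HOXA13 had 14.5, 16 and 2.42 with Nutlin-3, against 34.2 to 87.1 in Control (log2 fold change -2.60 ± 0.40, adjusted p = 5.3e-06), the largest change of the family here. HOXD13 was the other gene called lower (log2 fold change -0.68 ± 0.15, adjusted p = 0.00076). HOXC9 lost its call without any of 4 single libraries, Control 3 or 4 or Nutlin-3 1 or 2, or at equal library totals (0.26, adjusted p = 0.12), and its log2 fold change was 0.39 with all of them.

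Rita alone raised 5 of 7 HOXB genes. Calls numbered 10 higher and 2 lower among 22 HOX genes, and 25.8% higher, 26.3% lower and 52.1% in either direction among all rows. As shares of the HOX genes these were 45.5% higher, 9.09% lower and 54.5% either way, the last close to that of all rows. HOX genes had a median log2 fold change of 0.47, against 0.03 over all rows. The clusters gave 1 higher and 2 lower of 8 in HOXA, 5 higher and 0 lower of 7 in HOXB, 3 higher and 0 lower of 5 in HOXC and 1 higher and 0 lower of 2 in HOXD. HOXB8 had 116, 99.8, 102 and 116 normalized read counts with Rita, against 23.4 to 40.6 in Control (log2 fold change 1.78 ± 0.21, adjusted p = 3.9e-08). HOXB9 had 1994, 1952, 2104 and 2289 with Rita, against 491 to 761 in Control (log2 fold change 1.69 ± 0.12, adjusted p = 4.5e-13). The groups were apart in both. HOXB5 and HOXB3 were higher by 1.41 and 1.20 (adjusted p = 1.8e-10 and 3.1e-05). The 2 genes called lower were HOXA13 at -1.20 (adjusted p = 0.0072) and HOXA6 at -0.98 (adjusted p = 0.034). HOXA6 lost its call without Control library 1 or 3 or Rita library 2 or 3, at -0.76, adjusted p = 0.13 without Rita library 3. HOXC13, at 0.34 (adjusted p = 0.040), lost its call without any of 5 single libraries, Control 1, 2 or 4 or Rita 3 or 4, at equal library totals (0.17, adjusted p = 0.32) and with the replicate number as a block (0.34, adjusted p = 0.054).

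Rita and Nutlin-3 were given at different doses, so their direct comparison sets the treatments side by side as given. Of the 22 HOX genes tested, 9 were called higher and 3 lower, while 26.4% of all rows tested were called higher, 24.8% lower and 51.2% in either direction. As shares of the HOX genes these were 40.9% higher, 13.6% lower and 54.5% either way, the last close to that of all rows. The median log2 fold change was 0.34 over the HOX genes, against 0.03 over all rows. HOXD13 had 399.5, 439, 406 and 442 normalized read counts with Rita, against 163, 157 and 157 with Nutlin-3 (log2 fold change 1.40 ± 0.15, adjusted p = 7.7e-09). HOXA13 had 21.8, 28.7, 21.2 and 27.2 with Rita, against 14.5, 16 and 2.42 with Nutlin-3 (log2 fold change 1.40 ± 0.40, adjusted p = 0.0040), but this call ended without Nutlin-3 library 3 (0.65, adjusted p = 0.13). HOXB5 and HOXB8 were higher with Rita by 1.19 and 0.84 (adjusted p = 2.6e-08 and 0.0030). Lower with Rita were HOXA11 at -0.77, HOXC13 at -0.53 and HOXA5 at -0.50 (adjusted p = 0.00025, 0.0044 and 0.0050). The call of HOXC13 ended without Nutlin-3 library 3 (-0.38, adjusted p = 0.062), and that of HOXC8 without Rita library 4 (0.59, adjusted p = 0.073) or Nutlin-3 library 1 (0.53, adjusted p = 0.12) or 2 (0.69, adjusted p = 0.061).

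B87 + DMKG + Nutlin-3 left HOXB3 high and lowered most of the called members. There were 4 HOX genes called higher and 12 called lower of 22 tested, beside 28.3% of all rows called higher, 29.7% lower and 58% either way. Over the HOX genes the median log2 fold change was -0.60, against 0.02 over all rows. By cluster there were 2 higher and 5 lower of 8 in HOXA, 2 higher and 2 lower of 7 in HOXB, 0 higher and 3 lower of 5 in HOXC and 0 higher and 2 lower of 2 in HOXD. HOXB3 had 338, 419.8, 381 and 320.5 normalized read counts with the triple treatment, against 29.9 to 39.4 in Control (log2 fold change 3.30 ± 0.22, adjusted p = 5.3e-14). HOXA5, a gene of lung and airway development, had 50.4, 70.6, 66.5 and 48.8 with the triple treatment, against 419.8, 439, 431 and 460.4 in Control (log2 fold change -2.88 ± 0.13, adjusted p = 9.2e-18). HOXA6 had 10.1, 9.04, 7.39 and 3.43, against 86.4 to 107 in Control (log2 fold change -3.60 ± 0.38, adjusted p = 2.3e-09). These 3 genes were apart from Control in every library. HOXA7, HOXD8 and HOXA13 were lower, with log2 fold changes of -2.48, -2.08 and -2.04 (adjusted p = 5.5e-05, 2.1e-08 and 2.1e-05). HOXA2 was higher by 0.80 (adjusted p = 0.0073). HOXB9 was at 0.31 (adjusted p = 0.023) and lost its call without Control library 3 (0.18, adjusted p = 0.17), without library 1 of the triple treatment (0.27, adjusted p = 0.075) and at the same total in every library (0.15, adjusted p = 0.27). Under quantile normalization HOXB9 stood at 0.55, adjusted p = 0.00017, HOXB6 lost its call (-0.31, adjusted p = 0.083) and HOXC13 was at -0.41, against -0.70 with the authors' scaling.

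Added to B87 + DMKG, Nutlin-3 mostly lowered HOX genes, with called members in all 4 clusters. Calls numbered 2 higher and 13 lower among 22 HOX genes, and 26.5% higher, 32.3% lower and 58.9% in either direction among all rows. HOX genes had a median log2 fold change of -0.77, against -0.05 over all rows. Quantile normalization gave 2 higher and 8 lower. Split by cluster, these were 0 higher and 5 lower of 8 in HOXA, 1 higher and 4 lower of 7 in HOXB, 1 higher and 2 lower of 5 in HOXC and 0 higher and 2 lower of 2 in HOXD. HOXB5 had 155, 172, 199.6 and 155 normalized read counts with Nutlin-3 added, against 638, 743, 773 and 799.6 with B87 + DMKG (log2 fold change -2.11 ± 0.13, adjusted p = 2.5e-14). HOXA5 had 50.4, 70.6, 66.5 and 48.8 with Nutlin-3 added, against 173, 168, 158 and 215 with B87 + DMKG (log2 fold change -1.59 ± 0.13, adjusted p = 3.6e-11). HOXB8 had 28.2, 45.2, 41.6 and 47.1 with Nutlin-3 added, against 82.8, 163, 121 and 115 with B87 + DMKG (log2 fold change -1.53 ± 0.21, adjusted p = 4.8e-07). The groups did not overlap in any of the 3. HOXC9 fell, with a log2 fold change of -1.26 (adjusted p = 3.1e-09). HOXA6 was at -1.24 (adjusted p = 0.0066), and this call ended under quantile normalization (-0.81, adjusted p = 0.084). HOXC13 and HOXB13, both posterior, were the 2 genes called higher, at 0.76 and 0.74 (adjusted p = 3.4e-05 and 0.00013), with 1.11 for HOXB13 under quantile normalization. HOXD13 was at -0.80, or -0.46 under quantile normalization. HOXB3 was not called, with 338, 419.8, 381 and 320.5 with Nutlin-3 added, against 429.6, 435, 445 and 379.6 with B87 + DMKG (log2 fold change -0.22 ± 0.22, adjusted p = 0.41). HOXA4, HOXA11, HOXC10 and HOXD8 were called lower but lost the call under quantile normalization, at log2 fold changes of -0.56, -0.28, -0.13 and -0.10. Without B87 + DMKG library 2, HOXC10 was at -0.48, adjusted p = 0.16 and HOXD8 at -0.45, adjusted p = 0.13, and without B87 + DMKG library 1 HOXA4 was at -0.85, adjusted p = 0.069. Leaving out library 1 of the triple treatment also ended the calls of HOXA4 and HOXD8, leaving out 3 or 4 those of HOXC10 and HOXD8, and leaving out 2 that of HOXC10, which also needed B87 + DMKG libraries 1 and 3.

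B87 + DMKG + Rita raised 4 HOXB genes and 2 HOXC genes and lowered 4 HOXA genes and HOXB13. Of the 22 HOX genes tested, 7 were called higher and 5 lower, while 29.4% of all rows tested were called higher, 30.7% lower and 60.1% in either direction. As shares of the HOX genes these were 31.8% higher, 22.7% lower and 54.5% either way, so no more of them were called than of all rows. The median log2 fold change was 0.18 over the HOX genes, against 0.01 over all rows. The clusters gave 1 higher and 4 lower of 8 in HOXA, 4 higher and 1 lower of 7 in HOXB, 2 higher and 0 lower of 5 in HOXC and 0 higher and 0 lower of 2 in HOXD. HOXB9 had 1891, 1791, 1919.8 and 1878 normalized read counts with the triple treatment, against 491 to 761 in Control (log2 fold change 1.53 ± 0.12, adjusted p = 1.9e-12). HOXB3 had 89.4, 64.2, 84.6 and 90.2, against 29.9 to 39.4 in Control (log2 fold change 1.15 ± 0.22, adjusted p = 4.1e-05). HOXA6 had 20.2, 26.4, 9.90 and 18.7, against 86.4 to 107 in Control (log2 fold change -2.37 ± 0.38, adjusted p = 4.2e-06). The groups were apart for each of these. HOXB8 and HOXC8 were higher by 1.48 and 0.92, and HOXA13, HOXA11 and HOXA5 were lower, with log2 fold changes of -1.58, -0.84 and -0.76. HOXB13, at -0.40 (adjusted p = 0.025), lost its call without Control library 4 (-0.36, adjusted p = 0.067), without library 1 of the triple treatment (-0.33, adjusted p = 0.086) and under quantile normalization (-0.17, adjusted p = 0.38), and stood at -0.66 with the same total in every library.

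Added to B87 + DMKG, Rita lowered the anterior genes HOXA2, HOXA4 and HOXB3 and also HOXB5, HOXB6 and HOXB7. Among the genes it raised were HOXC13, HOXB9 and both HOXD genes. There were 9 HOX genes called higher and 6 called lower of 22 tested, beside 33.1% of all rows called higher, 34.2% lower and 67.3% either way. The share of HOX genes called either way, 68.2%, was close to that of all rows. Over the HOX genes the median log2 fold change was 0.08, against 0.00 over all rows. By cluster there were 2 higher and 2 lower of 8 in HOXA, 2 higher and 4 lower of 7 in HOXB, 3 higher and 0 lower of 5 in HOXC and 2 higher and 0 lower of 2 in HOXD. With the same total in every library, 4 were called higher and 8 lower, so the balance of the 2 directions depends on the scaling. HOXB3 had 89.4, 64.2, 84.6 and 90.2 normalized read counts with Rita added, against 429.6, 435, 445 and 379.6 with B87 + DMKG (log2 fold change -2.36 ± 0.22, adjusted p = 1.1e-10). HOXA4 had 18.4, 15.1, 11.7 and 22.8 with Rita added, against 90.6, 48, 46.3 and 57.5 with B87 + DMKG (log2 fold change -1.76 ± 0.37, adjusted p = 0.00013). HOXA2 had 103, 97.2, 121 and 145 with Rita added, against 285, 345, 307 and 312 with B87 + DMKG (log2 fold change -1.43 ± 0.25, adjusted p = 1.1e-05). None of the 3 overlapped between the groups. In the other direction, HOXC13 had 615, 631, 617 and 666 with Rita added, against 191, 256, 217 and 206 with B87 + DMKG (log2 fold change 1.54 ± 0.14, adjusted p = 7.0e-11). HOXB9 had 1891, 1791, 1919.8 and 1878 with Rita added, against 708, 808, 839 and 707 with B87 + DMKG (log2 fold change 1.29 ± 0.12, adjusted p = 6.1e-11). Both were apart between the groups.

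HOXD8 was higher by 1.32 (adjusted p = 3.0e-05) with Rita added, and HOXD13 by 0.66 (adjusted p = 0.00017), with 0.42 for HOXD13 at the same total in every library and 1.00 under quantile normalization. HOXB7 was lower, at -1.21 (adjusted p = 3.9e-06). HOXB6 was at -0.57, and at -0.35 under quantile normalization. HOXA7, at 1.13, lost its call without B87 + DMKG library 1 or 4 or library 2, 3 or 4 of the triple treatment, down to 0.74, adjusted p = 0.18 without B87 + DMKG library 4. HOXC8 lost its call without B87 + DMKG library 2 (0.36, adjusted p = 0.18) or library 2 or 4 of the triple treatment. HOXB5 lost its call without any of B87 + DMKG libraries 2, 3 or 4 or library 2 of the triple treatment, down to -0.24, adjusted p = 0.13 without that last one. HOXA5, HOXB13 and HOXC9 lost their calls with the same total in every library, at 0.30, 0.25 and 0.24, as did HOXA7 (0.90, adjusted p = 0.099) and HOXC8 (0.34, adjusted p = 0.22). Under quantile normalization HOXA5, HOXB13 and HOXC8 were at 0.89, 0.83 and 1.06, against 0.54, 0.50 and 0.58 with the authors' scaling. HOXB5 was at -0.32 with that scaling, at -0.56 at equal library totals and, no longer called, at -0.19, adjusted p = 0.18 under quantile normalization.

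The triple treatments were also set against each other, a comparison chosen after seeing the data, with different doses of the 2 added compounds. Calls numbered 14 higher and 1 lower among 22 HOX genes, and 24.5% higher, 23.8% lower and 48.3% in either direction among all rows. HOX genes had a median log2 fold change of 0.92, against 0.01 over all rows. Split by cluster, these were 4 higher and 0 lower of 8 in HOXA, 4 higher and 1 lower of 7 in HOXB, 4 higher and 0 lower of 5 in HOXC and 2 higher and 0 lower of 2 in HOXD. HOXB3 was the only member called lower with Rita, at 64.2 to 90.2 normalized read counts with B87 + DMKG + Rita, against 320.5 to 419.8 with B87 + DMKG + Nutlin-3 (log2 fold change -2.14 ± 0.22, adjusted p = 9.8e-10). HOXA5 had 243 to 275 with B87 + DMKG + Rita, against 48.8 to 70.6 with B87 + DMKG + Nutlin-3 (log2 fold change 2.12 ± 0.13, adjusted p = 2.1e-14). HOXA7 had 46.5, 57.6, 54.9 and 80.9 with B87 + DMKG + Rita, against 17.2, 14, 7.39 and 12.9 with B87 + DMKG + Nutlin-3 (log2 fold change 2.16 ± 0.48, adjusted p = 0.00034). The groups were apart in these 3. HOXD8, HOXB5 and HOXC9 were higher with Rita by 1.95, 1.79 and 1.74 (adjusted p = 7.8e-08, 3.9e-13 and 1.6e-12). HOXA6 lost its call without library 4 of B87 + DMKG + Nutlin-3 (0.94, adjusted p = 0.054). HOXA11, at 0.38, lost its call without any single library of either group except library 3 of B87 + DMKG + Nutlin-3, under quantile normalization (0.35, adjusted p = 0.081), at equal library totals (0.28, adjusted p = 0.14) and with the replicate number as a block (0.38, adjusted p = 0.056). HOXC11, a posterior gene near the minimum level, was not called in any of the 13 comparisons.

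**Figure D3:**
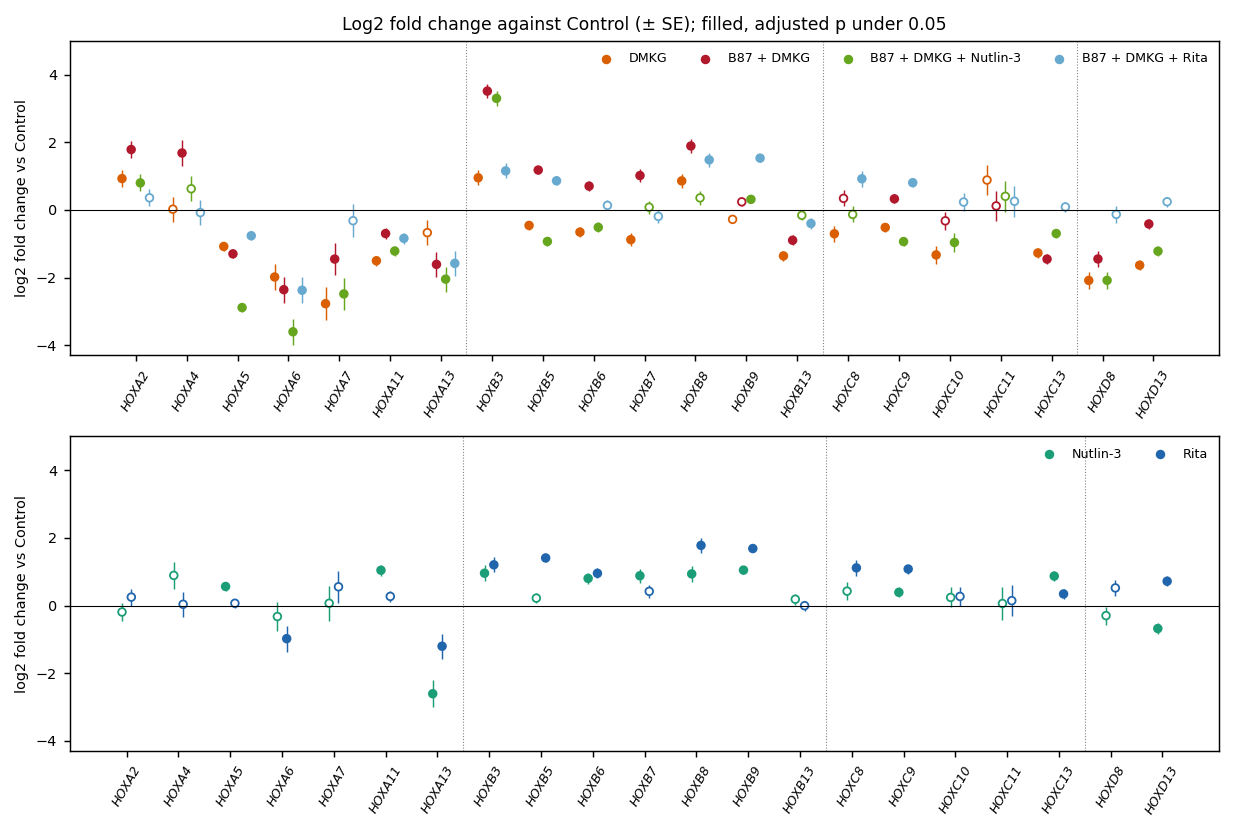
Log2 fold changes against Control (vertical axis) with SE for 21 tested HOX genes ordered by cluster and position (horizontal axis), for DMKG, B87 + DMKG and both triple treatments (top) and for Nutlin-3 and Rita (bottom), which all share the Control libraries. Filled points have an adjusted p under 0.05. HOXB3 is at 3.51 in B87 + DMKG and at 1.15 in B87 + DMKG + Rita, and HOXA6 is at -3.60 in B87 + DMKG + Nutlin-3.

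**Figure D4:**
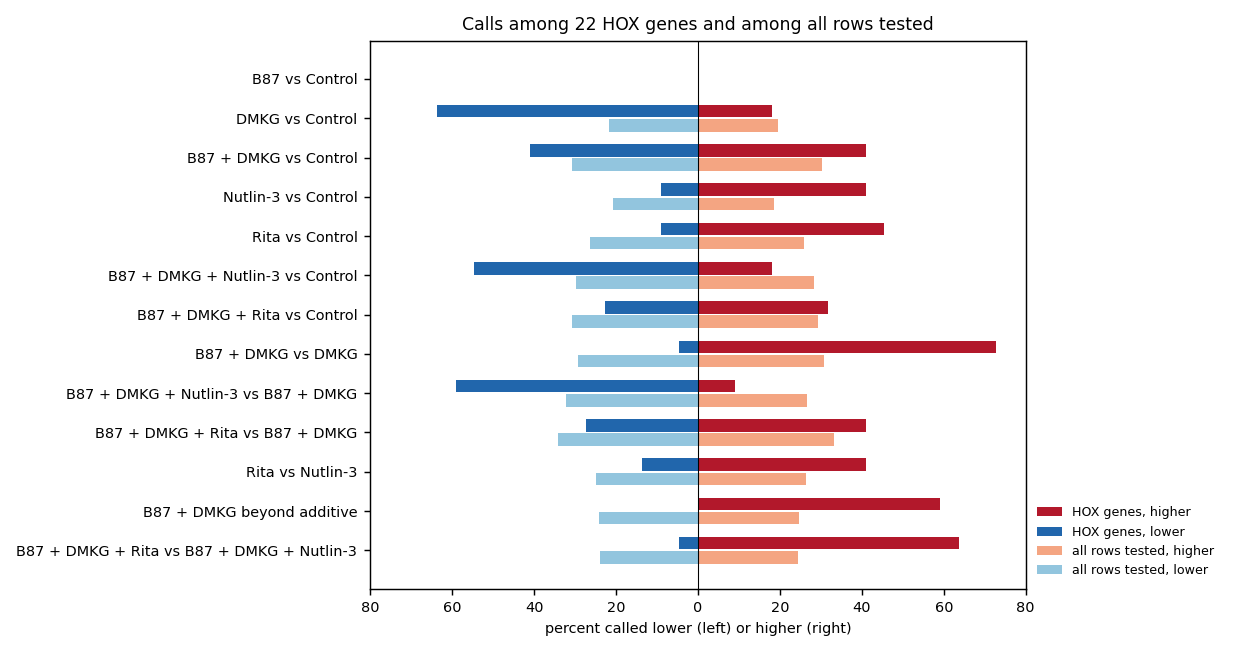
Percent of the 22 tested HOX genes and of all 16259 rows tested that were called lower (left) and higher (right) in each of the 13 comparisons (listed down the page), where "beyond additive" is the difference between the effects of B87 with and without DMKG. In DMKG against Control, 63.6% of the HOX genes and 21.8% of all rows were called lower, and in B87 + DMKG against DMKG 72.7% of the HOX genes and 30.8% of all rows were called higher.

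Rows that join several HOX genes were followed as well, and that of HOXA9 and HOXA10 also covers the rows of HOXA11 and HOXA13. HOXA9 // HOXA10 was lower with B87 + DMKG (782 ± 106 normalized read counts, SD, n = 4) than in Control (1209.6 ± 62.2, SD, n = 4; log2 fold change -0.64 ± 0.11, adjusted p = 8.7e-06). With B87 + DMKG + Nutlin-3 it averaged 408 ± 37, lower than with B87 + DMKG (log2 fold change -0.93 ± 0.11, adjusted p = 2.0e-08). HOXC4 // HOXC5 // HOXC6 was higher with B87 + DMKG (658 ± 43.1) than in Control (391 ± 10.5; log2 fold change 0.75 ± 0.11, adjusted p = 1.6e-06). Of 6 tested non-coding RNAs from within the clusters, 2 rose and 1 fell with B87 + DMKG, while 30.2% and 30.8% of all rows were called higher and lower. One of those called higher, HOXA-AS2 at 0.43 (adjusted p = 0.037), lost its call under DESeq2, under edgeR, with no filter, in a fit of only the groups compared, and without any of B87 + DMKG libraries 2, 3 or 4 or Control libraries 1, 2 or 4. Under quantile normalization it stood at -0.11, with an adjusted p of 0.64. With B87 + DMKG, HOXC13-AS was at 19.5 ± 5.88, against 79.1 ± 16.2 in Control (log2 fold change -1.99 ± 0.27, adjusted p = 2.7e-07), and its row overlaps HOXC13 by 852 bases. HOXA10-AS was lower with DMKG (-1.06) and higher with B87 + DMKG (0.44, adjusted p = 0.0016). Its row overlaps that of HOXA9 // HOXA10 by 3017 bases, and the row of HOXA-AS2 overlaps that of HOXA5 by 13414. The values of these RNAs are therefore uncertain as well.

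Among the HOX cofactors, MEIS1, MEIS2 and PBX3 fell with Rita and with B87 + DMKG + Rita. Of 8 cofactors tested, 1 rose and 6 fell with Rita, 1 rose and 6 fell with B87 + DMKG + Rita, and 4 rose and 1 fell with B87 + DMKG, all against Control. Of all rows, 25.8% and 26.3% were called higher and lower with Rita, 29.4% and 30.7% with B87 + DMKG + Rita and 30.2% and 30.8% with B87 + DMKG. MEIS1, which binds DNA beside HOX and PBX proteins, averaged 5.62 ± 2.56 normalized read counts with B87 + DMKG + Rita, against 118 ± 16.1 with B87 + DMKG and 93.8 ± 14.5 in Control (SD, n = 4 each). Its log2 fold change was -3.90 against Control and -4.23 against B87 + DMKG (adjusted p = 9.9e-13 and 1.3e-13). With Rita alone MEIS1 was at -2.31, MEIS2 at -1.67 and PBX3 at -1.27 (adjusted p = 7.6e-08, 3.8e-08 and 9.6e-08). PBX2 was higher with B87 + DMKG (0.79, adjusted p = 2.1e-07), as was PBX4 at 1.67, or 1.09 under quantile normalization. With Nutlin-3, 1 of the 8, PKNOX1, was called (-0.60, adjusted p = 0.00010), beside 18.5% of all rows called higher and 20.7% lower.

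Regulators of HOX chromatin changed in both directions. Of 26 Polycomb genes, 9 rose and 11 fell with B87 + DMKG (median log2 fold change -0.15), beside 30.2% and 30.8% of all rows higher and lower. The leading ones were PHC1 at 1.80, CBX7 at 1.74 and PHF1 at 1.25. With Rita added, 6 rose and 14 fell against B87 + DMKG, or 2 and 19 at equal library totals, beside 33.1% and 34.2% of all rows. JARID2, an accessory subunit of the complex that methylates lysine 27, averaged 34.8 ± 4.77 normalized read counts with B87 + DMKG + Rita, against 212 ± 26.7 with B87 + DMKG (log2 fold change -2.58 ± 0.16, adjusted p = 1.1e-14). A list of 17 genes counted the linked factors DOT1L, MLLT1, MLLT3, AFF1, AFF4 and PSIP1 together with trithorax genes. Of these 17, 1 rose and 13 fell when Nutlin-3 was added to B87 + DMKG (median -0.63), beside 26.5% and 32.3% of all rows. All of the linked factors but MLLT3 were among those that fell. The histone methyltransferase KMT2D averaged 944 ± 214 with Nutlin-3 added, against 5440.3 ± 289.7 with B87 + DMKG (log2 fold change -2.55 ± 0.14, adjusted p = 8.4e-16). SETD1B and SETD1A, of the same enzyme family, were at -2.47 and -1.24 in that comparison (adjusted p = 3.6e-17 and 8.9e-14).

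KDM6A and KDM6B, demethylases of lysine 27 that use α-ketoglutarate as a co-substrate, were tested. KDM6A averaged 886 ± 74.6 normalized read counts with B87 + DMKG, against 2078 ± 142 in Control (log2 fold change -1.23 ± 0.10, adjusted p = 1.8e-11). It was also lower with Rita (-1.94), B87 + DMKG + Rita (-2.77) and B87 + DMKG + Nutlin-3 (-0.78), and not called with DMKG (-0.05, adjusted p = 0.72). KDM6B was higher with Rita (1.01, adjusted p = 1.7e-06) and B87 + DMKG + Rita (1.08, adjusted p = 3.7e-07), and lower with B87 + DMKG + Nutlin-3 (-1.35, adjusted p = 5.8e-09). Of 10 genes of retinoid signalling, 1 rose and 3 fell with B87 + DMKG, against 30.2% and 30.8% of all rows. One of those that fell, ALDH1A3, a retinoic acid synthesis enzyme at -1.66, lost its call without B87 + DMKG library 2 (-0.63, adjusted p = 0.086) and in a fit of only the groups compared. STRA6, the receptor for vitamin A uptake, averaged 4.42 ± 3.14 with B87 + DMKG, against 38.4 ± 9.98 in Control (log2 fold change -3.19 ± 0.74, adjusted p = 0.00042). With Rita added it averaged 64.8 ± 4.55, against 4.42 ± 3.14 with B87 + DMKG (log2 fold change 3.96 ± 0.74, adjusted p = 2.4e-05). CRABP2, which carries retinoic acid in the cell, was higher with Rita (2.30) and RARB, a retinoic acid receptor, lower (-2.99, adjusted p = 1.9e-13 and 3.5e-09).

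The genes beside the clusters were counted for comparison. Of 19 flanking genes tested, 5 rose and 1 fell with DMKG (4 and 2 at equal library totals), beside 19.6% and 21.8% of all rows called higher and lower. With B87 + DMKG, 3 rose and 7 fell (5 and 7 under quantile normalization), beside 30.2% and 30.8% of all rows. SNX10, beyond the anterior end of HOXA, was at -0.93 (adjusted p = 0.00032) and HIBADH, beyond HOXA13, at -0.68 (adjusted p = 4.7e-08). CALCOCO1, near HOXC13, was at 0.93 (adjusted p = 6.0e-08). The median over the flanking genes was -0.20, against 0.18 over the HOX genes and 0.00 over all rows.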

How the data were processed

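RNA-seq libraries of H460 cells were analysed from 1 table of 74834 rows and 31 libraries. Its values are a normalized signal, read counts per gene that the authors divided by 1 size factor per library, per the file headers and labels. STAR 2.4.0, FastQC, Picard, SAMtools and DESeq2 are named in the submitters' processing notes without roles. Positions are on hg19 per the file headers, while the processing notes name a mouse genome build although the cells are human. The counting program is not given in the sources used here.

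Rows with a mean of at least 10 (16259, of which 2416 had no symbol) were tested with limma 3.58.1 in R 4.3.3 on log2(value + 1), in 1 fit of all 8 groups with a trended prior, two-sided, with Benjamini-Hochberg adjustment. A pseudocount of 1 understates the change of low genes. Every value above 0 was a whole multiple of 1 step per library, so whole reads were recovered for edgeR 4.0.16 (quasi-likelihood) and DESeq2 1.42.0 as alternatives. Other alternatives were pseudocounts of 0.5 and 5, a minimum of 50 or none, other scalings, the replicate block, fits of only the groups compared, and leaving out each library. Leaving out DMKG pairs, using only rows that overlap no other tested row, and comparing both triple treatments were chosen after seeing the data. Full statistics are given for the called members with the largest absolute log2 fold change, up to 5 in each direction, and up to 3 genes of other lists. The members and lists were chosen with earlier results of these data known. Counts cover all members tested, but the values of 1 member and of 1 gene of another list are not reported here. Only the limma fit was tested on simulated data, for DMKG against Control.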

Additional observations from a re-analysis of the deposited data

Results flagged for a closer look

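A single library stood apart from the other 3 of its group in 6 of 154 sets examined, each of 1 HOX gene in 1 group of 4 libraries. Chance alone gives about 1 in 20, a rate that these 6 do not exceed, and the sets share libraries. Rita library 4 had 644 normalized read counts of HOXA5 and 2910.2 of HOXB7, above the other Rita libraries. B87 + DMKG library 2 had 58.7 of HOXC8 and B87 + DMKG library 4 had 141 of HOXD13, below the others of that group. B87 + DMKG + Rita library 3 had 54.9 of HOXC10, and Control library 4 had 83.1 of HOXD8, each below the others of its group.

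The effect of B87 on top of DMKG differed from its effect without DMKG in 13 HOX genes by the limma test of the difference itself (adjusted p under 0.05). The differences on the log2 scale were 1.07 for HOXA2, 2.15 for HOXA4, 0.89 for HOXA11, 2.20 for HOXB3, 1.84 for HOXB5, 1.36 for HOXB6, 2.15 for HOXB7 and 0.94 for HOXB8. They were 0.58 for HOXB9, 0.97 for HOXC9, 1.18 for HOXC10, 1.03 for HOXD8 and 1.68 for HOXD13. Of these, HOXB8, HOXC10 and HOXD8 lost the call under quantile normalization, HOXA2 and HOXB9 without DMKG libraries 1 and 2, HOXC10 without DMKG libraries 3 and 4, and HOXD8 without DMKG library 1.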

How the results depend on the processing

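Of 174 called pairs of a HOX gene and a comparison, 135 kept their call under every alternative, 149 kept it without each single library, and 0 turned their direction. Of 112 pairs not called, 33 were called under at least 1 alternative. Without each single library in turn, the number of HOX genes called was 17 to 19 for DMKG, 15 to 19 for B87 + DMKG, 10 to 11 for Nutlin-3, 10 to 13 for Rita, 15 to 16 for B87 + DMKG + Nutlin-3, 11 to 12 for B87 + DMKG + Rita and 0 in each case for B87, all against Control. It was 14 to 17 for B87 + DMKG against DMKG, 13 to 14 for the difference between the effects of B87, 13 to 17 and 12 to 16 for Nutlin-3 and Rita added to B87 + DMKG, 10 to 13 for Rita against Nutlin-3 and 13 to 15 for the triple treatments. A fit of only the groups compared called 11 of 22 for B87 + DMKG against DMKG, where all groups in 1 fit gave 17. Using only rows that overlap no other tested row left 16 members, fewer by construction, of which 6 were called with Nutlin-3 and 7 for Rita against Nutlin-3. Replicate numbers did not pair the libraries (correlations -0.19 to 0.183), and the replicate block gave 11 calls for Rita and 14 for the triple treatments, against 12 and 15 without it, and changed no other count. Equal library totals shifted the median log2 fold change of all rows by -0.25 to 0.12 across the comparisons, and quantile normalization by -0.06 to 0.14. Quantile normalization ended 17 of the 174 calls, a fit of only the groups compared 15, no filter 12, equal library totals 9, edgeR 2, and leaving out DMKG libraries 1 and 2 or 3 and 4 ended 5 and 7. HOX genes with few reads, HOXC11 and HOXA4 among them, are limited by depth.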
